A study of Mus musculus with 2 samples.

Results

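The genes described here encode subunits of the hypoxia-inducible factors (HIFs), the prolyl hydroxylases that mark these factors for degradation, and several of their best known target genes. The 10 members were named by symbol as known parts of this pathway, with earlier results of these data in view, and all 10 were found among the 35275 genes of the count table by their Ensembl identifier in the GENCODE M21 annotation. RNAseq compared untreated (control) and peroxide-treated (senescent) cultures of AML12, an immortal but non-tumour line of mouse hepatocytes. Hydrogen peroxide was given for 1 h on each of 6 days, at 1 mM on day 1 and at 0.75 mM afterwards, and each exposure was followed by 23 h of recovery in complete medium with serum, insulin-transferrin-selenium and dexamethasone, and the treated cells were then re-seeded. The labels give the line as male, CD-1 strain, liver and 3 months of age for both groups, and AML12 cells are known to descend from a mouse transgenic for human TGF-α, so that both groups carry that transgene. RNA of 3 samples per condition was pooled into 1 library, so there was no replicate, no p-value and no error beyond counting. No low-oxygen treatment is described in the labels or in the methods.

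The control library held 28021941 counted reads and the senescent library 25738075, and 14383 genes had at least 10 reads over both. The keratins Krt8 and Krt18 and the liver transcription factor Hnf4a were abundant in both libraries, while albumin (Alb) fell from 32076 to 2917 reads (log2 ratio -3.23). Of 16 hepatocyte markers, 2 were lower by the rule given below (Alb and Apoa1, the latter with 2026 and 197 reads). A single marker was higher (Cyp2e1, 0 and 50 reads), and 6 log2 ratios were below 0 and 10 above. Levels are given in CPM, the usual expression of a read count relative to the library's total, here scaled by TMM. The hepatocyte markers summed to 8622 (control) and 10281 (senescent) CPM. Most of both sums, and the rise, came from Krt8 (4106 and 5838 CPM) and Krt18 (1393 and 2457), while Alb had 1103 and 118. Of 9 macrophage markers, 4 had the 10 reads needed for a call, and 2 of these were higher (Ptprc, 27 and 76 reads, and Csf1r, 15 and 40). The summed levels of the 9 were 194 and 82.1 CPM, nearly all of it Cd14, and Adgre1, Clec4f, Marco and C1qa had no read. The 8 endothelial markers summed to 0.481 and 1.49 CPM, and Tie1 and Emcn had no read. Only 1 of them, Vwf, had enough reads for a call, and it was higher. The 10 fibroblast and stellate markers summed to 0.928 and 0.403 CPM, and Col1a2, Col3a1, Acta2 and Lum had no read. Here too only 1 marker, Col1a1, had enough reads for a call, and it was lower. Csf1r was not called with total-count scaling (1.47), and neither Csf1r nor Vwf with at least 100 reads or a prior count of 5 (1.36 and 1.32), and none of Csf1r, Vwf and Ptprc with an assumed coefficient of variation of 0.4. The part of these markers' cell types in the ratios below was not tested. In a bulk sample, fewer cells of a type and less RNA per cell cannot be told apart.

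HIFs are dimers of an oxygen-regulated α subunit, such as HIF-1α (Hif1a) or HIF-2α (Epas1), and the constitutive β subunit ARNT. In the presence of oxygen, prolyl hydroxylases of the EGLN family modify the α subunit, which is then bound by the von Hippel-Lindau protein and degraded, so that HIF activity is set largely at the level of protein. When hydroxylation falls, the dimer binds short elements with the core ACGTG or GCGTG and raises genes for glucose uptake, glycolysis, mitophagy, pH control, collagen hydroxylation and angiogenesis, and among these are Egln1 and Egln3 themselves. In liver, oxygen falls from the portal to the central end of the lobule, and HIF-2α is known for control of erythropoietin and of lipid handling there.

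The transcripts of Hif1a, Epas1 and Egln1 differed by 1.47-fold or less between the libraries, whereas Egln3, Ankrd37, Bnip3 and Ndrg1 fell by between 3.67-fold and 7.60-fold in the senescent library. P4ha1 was intermediate at 1.93-fold lower, and P4ha1, Vegfa and Car9 did not pass the threshold given next. A gene was called higher or lower when its log2 ratio of senescent over control was above 1.5 or below -1.5, provided that the 95% interval excluded 0 and that the libraries together held 10 reads or more. By this rule 4 of the 10 members were lower and 0 were higher, against 5.6% of all genes tested that were lower and 2.71% that were higher, and since the members were not chosen blind to these data, the counts describe them and test nothing. With a threshold of 1, 5 members were lower and 0 higher, against 9.98% and 5.09% of all genes tested, and with a threshold of 2, 3 were lower and 0 higher, against 3.2% and 1.52%. The median log2 ratio of the 10 members was -1.08, and that of all genes tested was -0.02. The interval lay below 0 for 8 members and above 0 for 1, against 34.6% and 34.0% of all genes tested. Intervals are Clopper-Pearson intervals on the split of reads between libraries, or between 2 genes of a library where so stated. With 1 library per condition they cover counting error only. Even that error may be understated, since reads copied by PCR are not independent molecules.

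**Figure D1:**
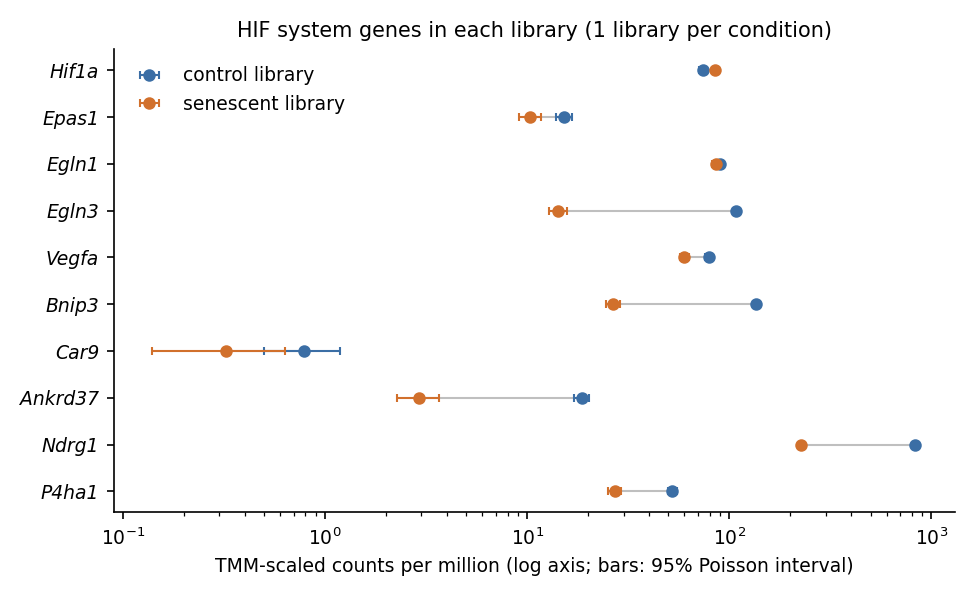
Level of each of the 10 genes in the control (blue) and the senescent (orange) library, in TMM-scaled CPM on a log axis, with 95% Poisson intervals of the counts and a grey line joining the 2 libraries. The widest gaps belong to Egln3, Ankrd37, Bnip3 and Ndrg1, while the points of Egln1 nearly coincide at 89.7 and 85.4 CPM.

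Hif1a, which encodes HIF-1α (ENSMUSG00000021109, chromosome 12 from 73901375 to 73947530 on the plus strand of GRCm38), had 2145 control reads and 2116 senescent reads. After scaling by edgeR's TMM method these were 73.8 and 85.3 CPM, a log2 ratio of 0.21 (95% interval 0.12 to 0.30). This was the only member with a ratio above 0, and it lay at percentile 66.3 of all genes tested. Epas1, which encodes HIF-2α (ENSMUSG00000024140, chromosome 17 from 86753700 to 86833410, plus strand), had 443 and 257 reads, or 15.2 and 10.4 CPM. Its log2 ratio was -0.55 (-0.78 to -0.33), so its level was lower beyond counting error but well short of the threshold. Arnt, the shared β subunit, had 1264 and 1365 reads (log2 ratio 0.34), and Hif3a, the third α subunit gene, had 2886 and 1288 (-0.93). The coactivator genes Ep300 and Crebbp had log2 ratios of 0.27 and 0.36. Thus none of the 7 genes of the HIF complex list with at least 10 reads was called, and their median log2 ratio was 0.21. Hif1a shares 330 exon bases with the antisense gene Gm15283, which had 47 and 60 reads, and 148 with Gm49321, which was not analysed here, and the use of strand in counting is not given in the sources used here.

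Among the oxygen sensors the data separated 2 paralogs. Egln3, which encodes the prolyl hydroxylase PHD3 (ENSMUSG00000035105, chromosome 12 from 54178981 to 54203860, minus strand), fell from 3154 to 353 reads. This corresponded to 108 and 14.2 CPM and a log2 ratio of -2.93 (-3.09 to -2.77), and it ranked 145 from the lowest among 14383 genes. Egln1, which encodes PHD2, the main hydroxylase of HIF-1α in normal oxygen (ENSMUSG00000031987, chromosome 8 from 124908587 to 124949324, minus strand), had 2608 and 2119 reads. Its 89.7 and 85.4 CPM gave a log2 ratio of -0.07 with an interval that held 0 (-0.15 to 0.01), and with total-count scaling the ratio was -0.18. Egln2, the remaining family member, had 3262 and 2396 reads (-0.22). The asparagine hydroxylase gene Hif1an had a log2 ratio of 0.47 and Vhl one of -0.50, and the ubiquitin ligase partner Elob and the NEDD8-conjugating gene Ube2m had -0.04 and 0.18. Of the 12 genes of hydroxylation and degradation, Egln3 was the only one called.

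Of the target genes, Bnip3, which encodes a mitochondrial receptor for mitophagy (ENSMUSG00000078566, chromosome 7 from 138890836 to 138909519, minus strand), fell from 3933 to 659 reads. Its level went from 135 to 26.6 CPM, a log2 ratio of -2.35 (-2.47 to -2.23). Near copies of its transcript (at least 95% identity over at least 100 bases) could share its reads, and the 1 such gene in the count table, Gm16439, which is 98.9% identical over 564 bases, had 2 and 1 reads. The antisense gene Gm45507, which shares 504 exon bases with Bnip3, was not analysed here. Ankrd37, which encodes a small ankyrin repeat protein long used as a hypoxia marker (ENSMUSG00000050914, chromosome 8 from 45996902 to 46005707, minus strand), fell from 542 to 72 reads. This was 18.6 and 2.90 CPM, with a log2 ratio of -2.67 (-3.06 to -2.33). The oppositely oriented Lrp2bp shares 349 exon bases with Ankrd37 and had 65 and 16 reads, and Ufsp2, also on the opposite strand, shares 57 and had 700 and 463. Reads of Ankrd37 and of these neighbours cannot be told apart where their exons overlap if strand was not used.

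Ndrg1, a stress-responsive gene that is induced by hypoxia and by differentiation (ENSMUSG00000005125, chromosome 15 from 66929318 to 66969640, minus strand), was the most abundant member. It fell from 24227 to 5630 reads, or from 833 to 227 CPM, a log2 ratio of -1.88 (-1.92 to -1.83). Its antisense neighbours Gm17035 and Gm2895 share 419 and 137 exon bases with it and had 660 and 133 reads and 178 and 54 reads. Both neighbours thus had fewer reads in the senescent library, as Ndrg1 had, at a small part of its read number.

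The remaining target genes lay between the threshold and 0. P4ha1, a catalytic subunit of the collagen prolyl 4-hydroxylase (ENSMUSG00000019916, chromosome 10 from 59323296 to 59373304, plus strand), had 1519 and 671 reads, or 52.2 and 27.1 CPM, with a log2 ratio of -0.95 (-1.08 to -0.82). Vegfa, the main angiogenic growth factor of the pathway (ENSMUSG00000023951, chromosome 17 from 46016993 to 46032369, minus strand), had 2298 and 1482 reads, or 79.0 and 59.8 CPM, with a log2 ratio of -0.40 (-0.50 to -0.31). Both were lower beyond counting error. Car9, the membrane carbonic anhydrase that is among the most strictly hypoxia-induced genes of many epithelial tumours (ENSMUSG00000028463, chromosome 4 from 43506966 to 43513729, plus strand), had only 23 and 8 reads. At 0.791 and 0.323 CPM its log2 ratio of -1.20 had an interval from -2.66 to -0.08, so a fall as large as that of Bnip3 and a difference near 0 both lay within counting error. Its antisense neighbour Gm12454, which shares 214 exon bases, had more reads than Car9 itself, 45 and 31.

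**Figure D2:**
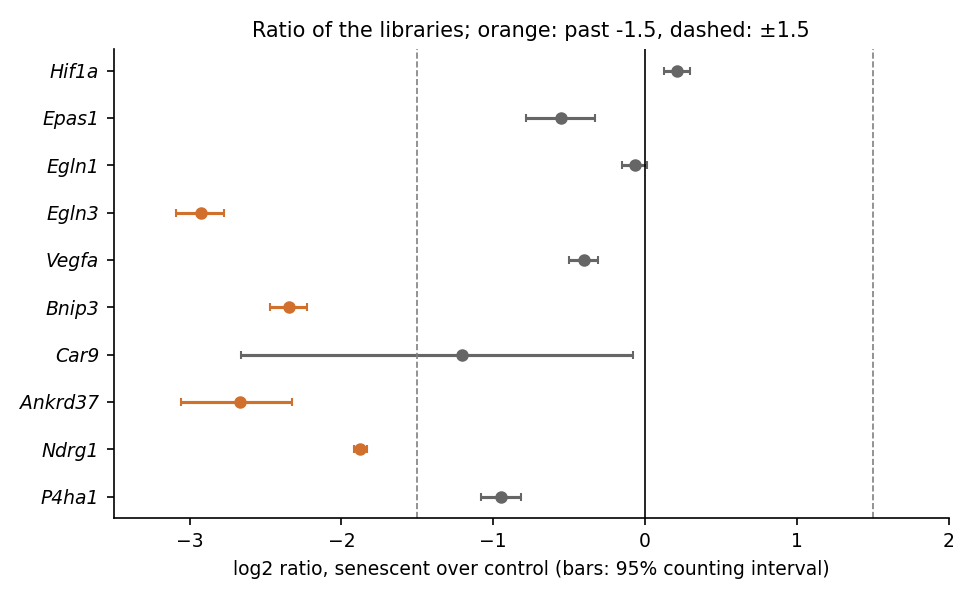
Log2 ratio of the senescent over the control library for each gene, with 95% counting intervals. Dashed lines mark 1.5 in either direction, and the 4 genes called lower (orange) lie between -2.93 and -1.88, while Hif1a alone lies above 0.

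The promoters of 3 of the 4 genes called lower, and that of Hif1a for contrast, are shown because HIF dimers bind the short core sequences named above. Promoter windows came from the RefSeq annotation of GRCm38.p6, in which 8 of the 10 members had an entry (not Epas1 or Ndrg1). Each line gives the 250 bases before a RefSeq start on the strand of the gene, 5′ to 3′, with matches to ACGTG or GCGTG on either strand in capitals. The windows are chr12:54203875-54204124 (minus strand) for Egln3, chr7:138909507-138909756 (minus strand) for Bnip3, chr8:45999851-46000100 (minus strand) for Ankrd37 and chr12:73907617-73907866 (plus strand) for Hif1a. The windows of Ankrd37 and Hif1a lie inside the gene spans printed above, since GENCODE M21 also lists a transcript of each gene that begins farther upstream.
Egln3: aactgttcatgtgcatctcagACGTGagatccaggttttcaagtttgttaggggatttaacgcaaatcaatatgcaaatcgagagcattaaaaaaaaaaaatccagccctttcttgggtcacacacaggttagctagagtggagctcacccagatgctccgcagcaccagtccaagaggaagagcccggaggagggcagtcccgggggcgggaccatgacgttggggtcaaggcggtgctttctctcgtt
Bnip3: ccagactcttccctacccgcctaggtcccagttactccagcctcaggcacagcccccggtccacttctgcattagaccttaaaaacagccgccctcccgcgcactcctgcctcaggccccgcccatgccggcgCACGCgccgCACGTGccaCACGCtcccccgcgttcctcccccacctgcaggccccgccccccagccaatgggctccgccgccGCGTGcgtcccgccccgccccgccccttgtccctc
Ankrd37: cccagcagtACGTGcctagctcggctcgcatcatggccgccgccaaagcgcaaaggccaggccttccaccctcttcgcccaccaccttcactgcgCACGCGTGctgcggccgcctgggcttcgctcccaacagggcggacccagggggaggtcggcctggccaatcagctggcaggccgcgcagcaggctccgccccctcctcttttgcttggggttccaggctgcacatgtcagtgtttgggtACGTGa
Hif1a: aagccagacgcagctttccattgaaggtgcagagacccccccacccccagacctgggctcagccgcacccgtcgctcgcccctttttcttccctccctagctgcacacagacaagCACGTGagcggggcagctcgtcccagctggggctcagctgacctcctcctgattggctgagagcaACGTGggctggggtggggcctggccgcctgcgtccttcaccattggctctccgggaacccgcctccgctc

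Egln3 held 1 match, from 229 to 225 bases before its RefSeq start. Bnip3 held 5, within 117 to 31 bases before its RefSeq start, and Ankrd37 held 4, of which 1 ended 2 bases before the RefSeq start used. Hif1a held 3 matches. In Bnip3 and in Hif1a a palindromic CACGTG gave a match on each strand, and that hexamer is also the E-box bound by factors such as MYC, USF and CLOCK. Of the members not called, P4ha1 held 3 matches, Egln1 held 2 and Car9 held 1, while of the 2 Vegfa windows 1 held none and 1, also inside the gene span, held 2. In all, 8 of the 9 member windows held a match, against 38.6% of 32851 windows of all genes and 54.6% of 13256 windows of genes tested here. The members' windows had a median GC content of 66.4%, compared with 52.4% over all windows and 59.6% over windows of genes tested. Windows of members called lower and of members not called thus both held matches, and a match describes letters in a window and not binding.

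Compared per kilobase of exon, the order of the members differed between the libraries. In the control library Ndrg1 was highest at 126 RPKM (TMM-scaled CPM per kilobase of merged exon), followed by Bnip3 (59.7), Egln3 (40.7), Egln1 (25.0) and Vegfa (18.4). P4ha1, Hif1a and Ankrd37 followed at 12.7, 12.5 and 12.1 RPKM, and neighbours in this group did not differ beyond counting error. Epas1 (2.73) and Car9 (0.343) were the lowest. In the senescent library Ndrg1 was still highest at 34.4 RPKM, but Egln1 (23.8) was the second and Hif1a (14.5) and Vegfa (13.9) followed without a difference beyond counting error. Bnip3 had moved to the fifth place at 11.7 RPKM, and Egln3 to the seventh at 5.35, below P4ha1 (6.58). Ankrd37 and Epas1, at 1.89 and 1.85 RPKM, did not differ beyond counting error.

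Ratios of 2 genes within a library do not depend on the scaling between libraries. Their shifts between libraries come from the same reads as the log2 ratios above, so they restate these and add no separate evidence. Egln3 was at 1.63 times the per-length level of Egln1 in the control (interval 1.55 to 1.72) and at 0.225 times in the senescent library (0.200 to 0.252). Bnip3 matched its paralog Bnip3l, also a mitophagy receptor, in the control at a ratio of 1.01 (0.968 to 1.05), and was at 0.279 of it in the senescent library (0.256 to 0.303). Ankrd37 was level with Hif1a in the control at 0.968 (0.879 to 1.06) and at 0.130 of it in the senescent library (0.102 to 0.165). Over Hif1a, the per-length ratio was 10.1 and 2.38 for Ndrg1, 4.77 and 0.811 for Bnip3, 1.47 and 0.964 for Vegfa and 1.01 and 0.454 for P4ha1. Each of these genes was thus lower against Hif1a in the senescent library beyond counting error, and Bnip3 passed from above Hif1a to below it. Car9 was at 0.0274 of Hif1a (0.0174 to 0.0413) in the control and at 0.00967 (0.00417 to 0.0191) in the senescent library. These intervals of Car9 overlapped. The ratio of Epas1 to Hif1a was 0.218 (0.196 to 0.241) and 0.128 (0.112 to 0.146). For P4ha1 over P4ha2 the ratio was 1.74 and 1.22, for Vegfa over Vegfb 1.44 and 0.939, and for Ndrg1 over Ndrg3 29.5 and 14.3, and in each of these pairs the intervals of the libraries did not overlap.

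**Figure D3:**
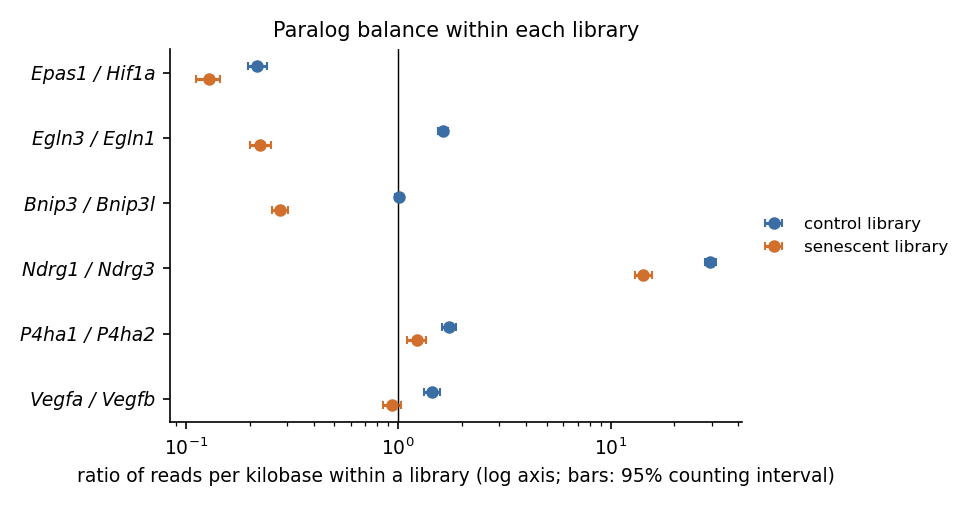
Ratio of reads per kilobase of 6 pairs of related genes within the control (blue) and the senescent (orange) library, on a log axis with 95% counting intervals. Egln3 passes from above Egln1 in the control to 0.225 of it in the senescent library, the widest shift of the 6 pairs.

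The rest of the pathway was described with 10 lists from general knowledge, which hold 95 genes beside the members. Of these, 85 had at least 10 reads, 9 were lower and 4 were higher, against 5.6% and 2.71% of all genes tested. Their median log2 ratio was -0.37, and that of all genes tested was -0.02. The same shares of all genes apply to the calls in single lists and families below, which are descriptions. Among 20 genes of glucose uptake and glycolysis, 3 were lower and 0 higher, with a median of -0.56. Pdk1, the kinase that keeps pyruvate from the citric acid cycle, fell from 1628 to 162 reads (-3.09, interval -3.34 to -2.87). This ratio was below that of any member, but its interval overlapped that of Egln3 (-3.09 to -2.77). The aldolase Aldoc fell from 371 to 67 reads (-2.22) and the enolase Eno2 from 197 to 44 (-1.91). Their abundant relatives did not pass the threshold, with log2 ratios of -0.63 for Aldoa and -0.67 for Eno1. Ldha, which makes lactate, had 43762 and 16125 reads (-1.21), and the glycolytic enzyme Gapdh had 41256 and 25818 (-0.45). Hexokinase was on the other side of 0, with 1.27 for Hk2 and 0.83 for Hk1.

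In the other lists, the genes called were few and not all in 1 direction. Of the pH and stress genes beside the members, the bicarbonate transporter Slc4a4 fell from 6469 to 1179 reads (-2.23) and the mTOR inhibitor Ddit4 from 11394 to 2096 (-2.21). Rora, a nuclear receptor, was the only gene of the chromatin and transcription list to be called (-2.10), and the histone demethylase Kdm3a and the transcription factor Ets1 had -0.44 and -0.08. Of the iron genes, the ferroxidase Cp fell from 36093 to 10028 reads (-1.62) and the transferrin receptor Tfrc had -0.58. The glycogen-targeting subunit Ppp1r3c had 50 and 2 reads (-3.90, interval -7.50 to -2.49), while Ugp2 and Pgm1 had -0.50 and -0.93. The 7 mitochondrial and lipid droplet genes tested beside Bnip3 were not called, and their median was -0.49. Their ratios ran from -0.75 for Fam162a to 0.77 for the lipid droplet protein Plin2, with -0.63 for Higd1a, -0.59 for the mitophagy receptor Fundc1, -0.49 for Bnip3l, 0.10 for the protease Lonp1 and 0.41 for Hilpda. Among secreted and angiogenic genes, Edn1 was lower (86 and 25 reads, -1.52), and it was not called with a prior count of 5 (-1.40) or with an assumed coefficient of variation of 0.4. In the same list Flt1, a VEGF receptor, rose from 223 to 630 reads (1.72, interval 1.51 to 1.95), Stc2 from 94 to 266 (1.72) and Stc1 from 6 to 26 (2.16, interval 1.03 to 3.92). Angptl4, a lipoprotein lipase inhibitor with the most reads in that list, had 0.42. Of the matrix genes, the urokinase receptor Plaur was higher (2425 and 8004 reads, 1.95). Epo, Cxcr4, Slc2a3, Lox and Cox4i2 had no read in either library, which allows levels of up to 0.103 CPM (control) and 0.121 CPM (senescent), the worth of 3 reads.

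**Figure D4:**
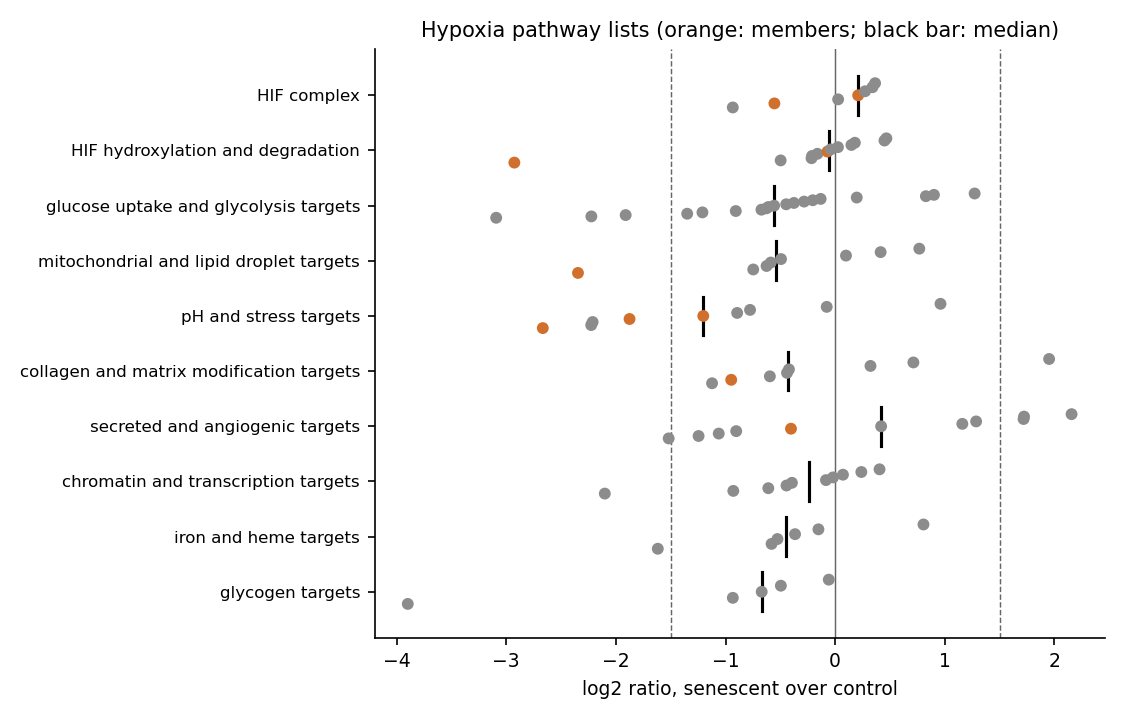
Log2 ratio of senescent over control for every gene with at least 10 reads in the 10 hypoxia pathway lists, with the members in orange, the other genes in grey and the median of each list as a black bar. The pH and stress list has the lowest median (-1.20, members included), and the secreted and angiogenic list and the HIF complex list are those with a median above 0.

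The gene families of the members were mixed. Of the 4 NDRG genes, Ndrg2 was also lower (133 and 31 reads, -1.84), Ndrg3 had -0.83 and Ndrg4 was higher from 6 to 31 reads. Of the collagen hydroxylases none was called, with -0.44 for P4ha2, -0.28 for the β subunit P4hb, -0.42 for Plod1, -0.60 for Plod2 and 0.18 for Plod3. Of 16 carbonic anhydrases only 8 had at least 10 reads. Car2 (0.68), Car13 (-0.47) and Car5b (-0.40) had the most reads and none of them passed the threshold, whereas Car14 was lower (50 and 8 reads) and Car11, with 19 control reads and 0 senescent reads, was at least 5.40-fold lower against a floor of 3 reads. Of the VEGF ligands, Vegfd was lower (54 and 6 reads, -2.76), and Vegfb, Vegfc and Pgf had 0.22, -0.33 and 1.29. The receptors Flt4, Nrp1 and Nrp2 had 0.88, 0.20 and -1.09.

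**Figure D5:**
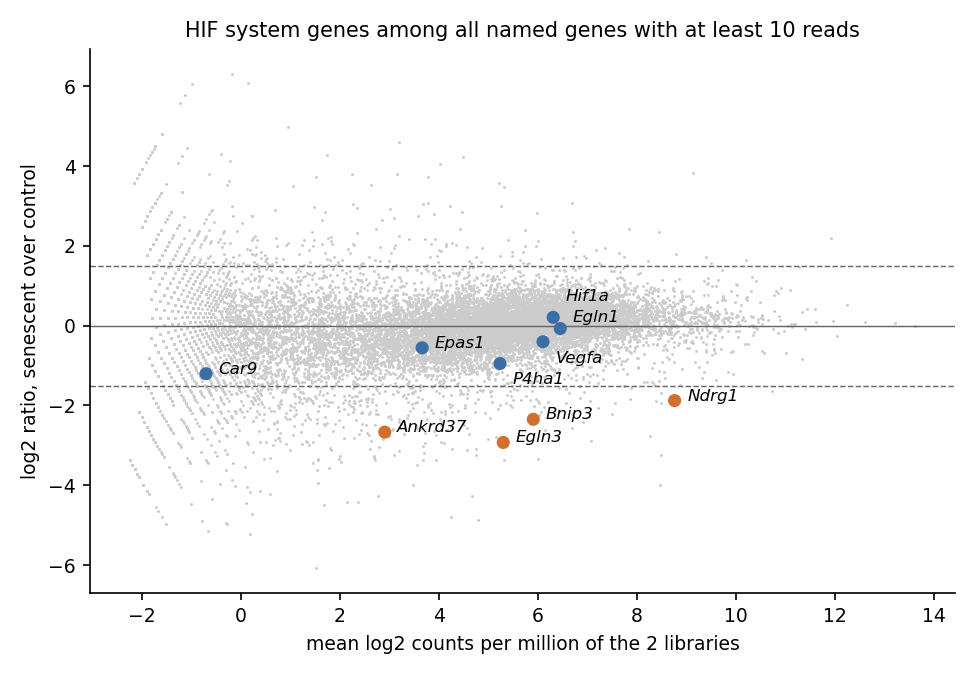
Log2 ratio of senescent over control against the mean log2 CPM, for all named genes with at least 10 reads (grey). The 4 members called lower (orange) lie below the dashed line at -1.5 over the range of expression from Ankrd37 to Ndrg1, and the other 6 members (blue) lie between the dashed lines, with Car9 at the low-count edge.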

How the data were processed

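RNAseq was measured in 1 control and 1 senescent library of AML12 cells, each made from RNA of 3 pooled samples. Poly(A) RNA was selected and copied with random primers. The authors deposited un-normalized read counts per Ensembl gene, and the submitters' processing notes name CASAVA, STAR, DESeq2, edgeR and the build mm10. The counting tool, its strand setting and the annotation are not given in the sources used here. The columns were assigned by the initials of the sample titles. Symbols, positions and merged exon lengths were taken from GENCODE M21 (GRCm38).

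Counts were scaled by TMM in edgeR 4.0.16 (R 4.3.3), the factors being 1.04 (control) and 0.964 (senescent). Log2 ratios with a prior count of 1 in proportion to library size and Clopper-Pearson intervals at 95% were computed in Python 3.11.15 with scipy 1.17.1, and near copies were sought with blastn 2.17.0. RPKM are TMM-scaled. The threshold of 1.5 is the study's. With 1 library per condition no quasi-likelihood or DESeq2 test could be fitted, and each ratio compares 2 libraries and not the conditions. The members and lists were chosen with earlier results of these data known. Named were all members, of each pathway list the genes called and the 2 with the most reads, family genes with at least 100 reads, the 3 marker genes with the most reads (some of these are left out) and overlapping genes, and 1 gene that this rule names is not reported here. Other genes named, such as Arnt, Egln2, Crebbp, Vhl, Hif1an, Hk1, Hk2, Fam162a, Higd1a, Fundc1, Hilpda, Aldoa, Eno1, Alb, Apoa1, Cyp2e1, Hnf4a, Csf1r, the less abundant family genes and those without reads, were chosen after their values were seen. The method was run on simulated data in which the planted changes were larger than that of any member. That run does not show how the method performs near the threshold. The 11 alternatives were total-count, DESeq2 1.42.0 and upper-quartile scaling, filters at 1 or 100 reads, prior counts of 0.125 and 5, log2 thresholds of 1 and 2, and wider intervals that assume a coefficient of variation of 0.1 or 0.4.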

Additional observations from a re-analysis of the deposited data

How the results depend on the processing

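The 4 members called lower were 4 under each alternative of scaling, filter, prior count and interval, 5 with a threshold of 1 (Car9 added) and 3 with a threshold of 2 (Ndrg1 lost), and 0 members were higher under any of the 11 alternatives. Total-count scaling moved the median of all genes by -0.11, and with it the ratio of Hif1a to 0.10, of Egln1 to -0.18 and of Vegfa to -0.51. The median of the members lay between -1.18 and -0.94. Genes higher and lower over the whole table numbered 390 and 805 with the main settings and 141 and 395 with at least 100 reads. They numbered 732 and 1435 with a threshold of 1 and 219 and 460 with a threshold of 2. A prior count of 5 left 259 and 602, and an assumed coefficient of variation of 0.4 left 261 and 595. Of the 85 other pathway genes tested, 7 were higher and 14 lower with a threshold of 1, against 5.09% and 9.98% of all genes tested. With a threshold of 2, 1 was higher and 6 were lower, against 1.52% and 3.2%. Each such setting by its construction tests fewer genes, shrinks ratios of low counts, moves the threshold or widens the intervals. No paired analysis was possible because each condition had 1 library, and no library could be left out. Depth limited Car9, Car11, Car14, Stc1, Ndrg4, Vegfd, Ppp1r3c, Csf1r, Vwf, Col1a1 and Cyp2e1, each with fewer than 100 reads. Intervals cover counting error only.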

Other observations

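The core motifs were not more frequent in the promoters of the genes called lower than in those of all genes tested. A match lay in 41.8% of 701 windows of lower genes and in 41.5% of 325 windows of higher genes, against 54.6% of 13256 windows of genes tested, and the median GC content of these windows was 55.6%, 54.4% and 59.6%. Of 100 windows of the other pathway genes 68.0% held a match, at a median GC content of 62.8%. These shares are descriptions, and the windows reach only 250 bases before a RefSeq start.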
